A study of Mus musculus with 3 samples.

Results

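Dermal papilla cells are the mesenchymal cells at the base of the hair follicle. They signal to the hair follicle stem cells and the hair germ through secreted Wnt modulators, R-spondins, BMP and FGF ligands and activin, and in turn receive Sonic hedgehog from the follicle epithelium. Outside the growth phase they sit as a small cluster below the hair germ. The cells described here came from single-cell RNA sequencing of back skin of wildtype, untreated mice at 12 months (male), with libraries of P38 (male) and 6 months (female) skin, also wildtype and untreated, in the same series. Each age had 1 library. The methods name a K14-H2BGFP line, in which keratinocytes carry a fluorescent histone, for sorting, where the labels give wildtype. The labels describe dissociated total back skin, while the methods describe a sort of epidermal and hair follicle cells by surface proteins and that reporter, so no share of cells below can be read as a share of the skin.

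The dermal papilla cells were chosen by the detection of marker genes. A cell of the 12 months library with over 200 and under 5000 genes and under 15% mitochondrial UMIs (unique molecular identifiers, 1 for each captured transcript) was taken when at least 4 of Crabp1, Corin, Rspo3, Hhip, Slc26a7, Enpp2, Pappa2, Inhba and Ndnf had a UMI and the basal keratins Krt14 and Krt5 together held under 0.2% of its UMIs. This gave 213 of the 3240 kept cells at 12 months and of the 8851 kept cells of all 3 libraries. They were set against 191 fibroblasts of the same library, in which Dcn, Col1a1, Col1a2, Col3a1 and Lum together held at least 1% of the UMIs and under 4 of the 9 genes were detected. The dermal papilla cells held 1619591 UMIs in all and a median of 6654 per cell (639 to 20315), with a median of 2262 genes and 2.77% mitochondrial UMIs. The fibroblasts held 2281019 UMIs, a median of 11222 per cell. Levels are CPM, the UMIs of a gene per 1000000 UMIs of the class. Their 95% limits are exact Poisson ones, those of a share of cells are Clopper-Pearson ones, and both cover counting error only. With 1 library per age there was no replicate, so no difference was tested, and a gene is called higher or lower where its CPM differed at least 2-fold.

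The number of rule genes per cell had 2 separate peaks at 12 months. The rule used this same number, so the peaks are a description and no support for the class. Among kept cells with little Krt14 and Krt5, 647 had none of the 9 genes, 152 had 1, 57 had 2 and 20 had 3, just outside the rule. Just inside it, 29 cells had 4 of the genes, and the number went up to 71 cells with 6 before it came down to 21 with 8 and 1 with 9. Cells with 4 of the genes had a median of 5870 UMIs and those with 3 had 9599. Of the latter, 10 of 20 passed the fibroblast gate, against 3 of 29. In all, 4 of the 213 dermal papilla cells had the fibroblast genes at 1% or more. At 6 months the same rule found 15 cells of 3502, and at P38 it found 0 of 2109. The limit used for a count of 0, 3 cells of the total, was 0.142% there, and the Clopper-Pearson limit was 0.175%. The share was 6.57% (95% interval 5.74 to 7.48) at 12 months and 0.428% (0.240 to 0.705) at 6 months. With the same limits the paper kept fewer cells at 6 months, so the share there depends on which barcodes are counted. Kept barcodes at 6 months were shallower, with a median of 1019 UMIs against 11438.5 at 12 months and 16170 at P38. The 2352 keratinocytes at 6 months had a median of 596 UMIs. Kept cells with little Krt14 and Krt5 and none of the 9 genes had 8155 at 6 months and 10811 at 12 months. The part of depth in the count at 6 months was not tested. Age, sex, hair cycle stage, depth and the preparation of each library cannot be told apart here. The 12 months and 6 months libraries shared 136 barcodes, of which 1 belonged to a dermal papilla cell: it held 639 UMIs at 12 months and 85514 at 6 months.

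**Figure D1:**
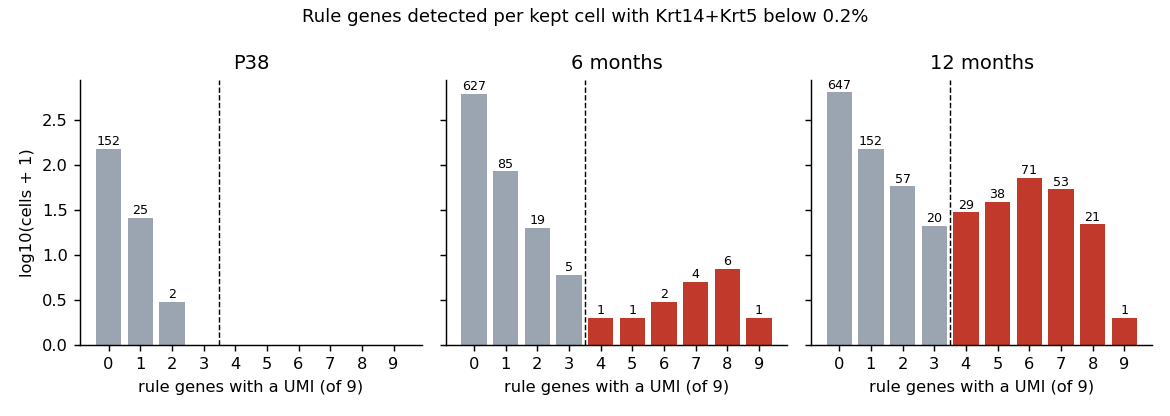
Number of kept cells with Krt14 and Krt5 below 0.2% of UMIs (y axis, log10 of cells + 1, with the number of cells above each bar) by the number of the 9 rule genes detected (x axis), in each library. Red bars are the cells the rule took, and the dashed line is its limit. At 12 months a second peak stood at 6 genes with 71 cells, at 6 months a smaller one stood at 8 genes with 6 cells, and at P38 no cell had more than 2.

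The 9 genes chose the cells, and their values are given as a description. Enpp2 (autotaxin, which makes lysophosphatidic acid) was found in 96.2% of the dermal papilla cells at 938 CPM, against 116 in fibroblasts. Slc26a7, an anion transporter, was found in 89.2% at 884 CPM, against 1 UMI in all fibroblasts. Crabp1, which binds retinoic acid in the cytoplasm, stood at 890 CPM in 87.8% of cells, and it was also present in 29.3% of fibroblasts, at 142 CPM. Inhba, the activin beta A subunit, had 608 CPM, Rspo3, a Wnt-enhancing R-spondin, 374, Pappa2, a protease of IGF binding proteins, 362, and Ndnf, a secreted neurotrophic factor, 278. Hhip, a hedgehog-binding protein, was sparser, with a UMI in 30.5% of cells (75.9 CPM), and Corin, a membrane protease, sparser still, in 12.7% (48.8 CPM). Neither had a UMI in the fibroblasts.

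Set against fibroblasts, the dermal papilla cells had higher levels of the prolactin receptor gene and of Lef1, Igfbp3 and Mdk. Of the measured ligand genes, 3 of 5 for BMP and 3 of 3 for FGF were higher. Levels of Ccl7, Ccl2, C4b and Cd34 were lower, as were 9 of 11 measured genes of matrix proteases and their inhibitors. Over all 7232 measured genes, 16.8% were higher and 11.0% lower, the background for each list count against fibroblasts below. A list of dermal papilla genes that were not in the rule was read first. The list was chosen with earlier results of these data known, so its counts are a description and no support for the class. Lef1 and Igfbp3, on this list, are also among the genes picked below for standing furthest above fibroblasts. Of 20 such genes, 15 had at least 50 UMIs in both classes together, the minimum for a gene to count as measured. Of these, 12 were at least 2-fold higher than in fibroblasts and 0 lower, where 16.8% of all 7232 measured genes were at least 2-fold higher and 11.0% at least 2-fold lower. Their median log2 ratio was 3.16, against 0.32 for all measured genes. Lef1, the transcription factor of Wnt signaling that marks the papilla, had 255 CPM (231 to 281) against 2.63 (0.965 to 5.73) in fibroblasts, in 74.2% and 2.62% of cells. Prdm1 (Blimp1), a repressor found in papilla precursors, stood at 186 against 16.7 CPM, and Sox18, a regulator of papilla specification, at 137 against 15.3. Spon1, a matrix protein, had 364 against 37.3 CPM. Vcan, the proteoglycan versican of the papilla matrix, had 338 against 127 CPM, but was found in fewer dermal papilla cells (37.1%) than fibroblasts (54.5%). Trps1 and Ebf1, transcription factors, stood at 566 against 126 and at 982 against 249 CPM.

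Several classical markers were found in few of the cells, and Sox2, Prom1, Alpl and Tbx18 did not reach the 50 UMIs of a measured gene. Sox2, which marks the papillae of some hair types, was found in 7.04% of the cells, with 33 UMIs in all, and Prom1 (CD133) in 7.98% with 22 UMIs. Alpl, the alkaline phosphatase used to stain papillae, was found in 7.98% with 43 UMIs, against 2 UMIs in fibroblasts. Tbx18, a marker of papilla precursors, had 6 UMIs against 30. Foxd1, Cntn1 and Fst did not reach 2-fold, with log2 ratios of -0.94, -0.99 and -0.51. Of 6 measured genes of the dermal sheath and smooth muscle, 3 were higher and 1 lower. The tropomyosins Tpm1 and Tpm2 stood at 259.9 against 93.4 and at 194 against 58.7 CPM, and the myosin light chain Myl9 at 123 against 33.8. Acta2 and Tagln, which encode smooth muscle actin and transgelin, had 2 and 4 UMIs, and Cnn1, Myh11 and Des had 0. Of the 7 pericyte genes Rgs5, Kcnj8, Abcc9 and Higd1b were at 0 as well, Ndufa4l2 was lower, and Cspg4, a surface proteoglycan, was higher at 66.7 against 17.5 CPM.

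Other cell types were searched for by fixed marker lists. The 12 immune markers summed to 14.2 CPM in the dermal papilla cells and 41338 in immune cells of the same library (115 cells with at least 3 of Ptprc, Coro1a, Laptm5, Cd53 and Rac2), and 6 of the 12 were at 0, Cd53 and Rac2 among them. The 8 endothelial markers summed to 6.79 CPM, with Cdh5, Cldn5 and Tek at 0. The 8 melanocyte markers summed to 28.4 CPM, with Pmel, Mlana and Tyrp1 at 0, and most of the rest was Mitf. Of the 7 Schwann cell markers Sox10 and Cdh19 were at 0, while Ncam1, which papilla cells also carry, stood at 236 CPM against 55.2 in fibroblasts. The 12 keratinocyte markers summed to 520 CPM, against 884 in fibroblasts and 30351 in the 1749 keratinocytes. All 12 had a UMI in some dermal papilla cell, and the part of free RNA in these UMIs was not tested.

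The 20 genes that stood highest above fibroblasts, outside the rule, were led by Prlr, the prolactin receptor, known to restrain the hair cycle in mice (chromosome 15, 10177238 to 10349180, plus strand, GRCm38). Prlr had 1108 CPM (1058 to 1161) in dermal papilla cells and 3.95 (1.80 to 7.49) in fibroblasts, a log2 ratio of 8.13 (7.21 to 9.27). It was found in 91.1% of the dermal papilla cells and 3.14% of fibroblasts. After each cell was thinned to 3000 UMIs, so that depth was the same, the shares were 82.9% and 1.08%, with 10.6% of keratinocytes, whose median depth before thinning was 12026 UMIs. Next came Spock1, then Lef1 and Brinp3. Spock1 and Brinp3 had 0 UMIs in fibroblasts. Spock1, a heparan sulfate proteoglycan, was at least 95.3-fold higher at 125 CPM and Brinp3 at least 42.3-fold higher at 55.6 CPM, taking 3 counts over all fibroblasts as the floor.

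The rest of the 20 fell into a few roles. Transcription factors besides Lef1 were Runx3 (404 against 15.8 CPM), Tfap2c (150.04 against 2.19) and Irf8 (154 against 3.95). Runx3 and Irf8 are better known from immune cells, where they stood at 214 and 118 CPM, while the immune markers named above were at or near 0 in the dermal papilla cells. Secreted proteins were Igfbp3, which binds insulin-like growth factors (2815 CPM, 2734 to 2898, against 112, 98.5 to 126), the heparin-binding growth factor Mdk (330 against 7.89), the protease inhibitor Serpine2 (755 against 29.4), and the Wnt inhibitors Sfrp2 (94.5 against 2.19) and Notum (92.0 against 2.63). Surface and signaling proteins were Cd24a (547 against 12.7), the adhesion molecule Ncam2 (105 against 1.75), the prostacyclin receptor Ptgir (200.1 against 7.01), the phosphatase Dusp2 (184 against 4.38), the adaptor Sh2b2 (79.0 against 1.32) and the small GTPase Rasd1 (966 against 42.5), a glucocorticoid-inducible gene. The sulfotransferase Chst8 and the noncoding RNA Snhg11 completed the list with log2 ratios of 5.36 and 5.89. Not all of these genes were widespread: Cd24a was detected in 46.0% of the dermal papilla cells, Mdk in 41.3%, Dusp2 in 28.6% and Notum in 26.8%. Some were also found in other classes of the library. Cd24a was detected in 57.2% of keratinocytes, at 130 CPM, and Tfap2c in 53.9%, at 87.7 CPM. Dusp2 stood at 210 CPM in immune cells. Brinp3 and Ncam2 had 0 UMIs in keratinocytes and immune cells.

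**Figure D2:**
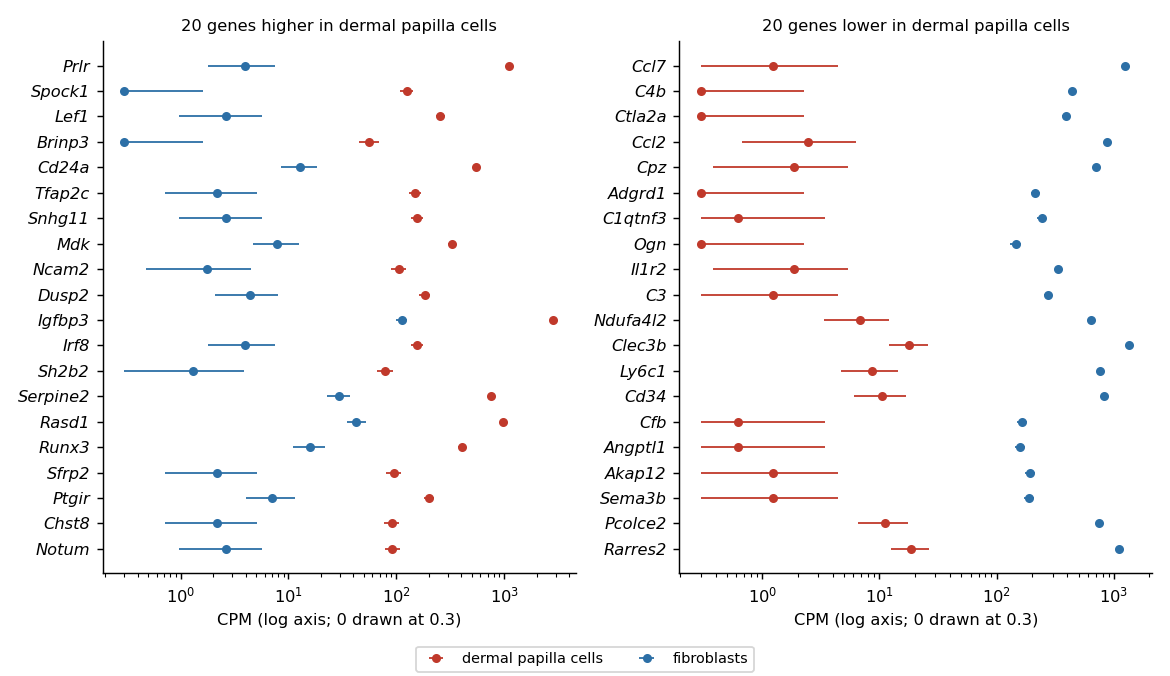
CPM (log x axis, a value of 0 is drawn at 0.3) of the 20 genes furthest above and the 20 furthest below fibroblasts by the nearer limit of the interval, in dermal papilla cells (red) and fibroblasts (blue) at 12 months; bars are exact Poisson 95% intervals. The 40 genes were picked by the limits of their ratio, so the gap between the classes follows from the choice. Prlr and Igfbp3 stand at 1108 and 2815 CPM in dermal papilla cells.

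The reference promoters of RefSeq (250 bases before to 50 after the start, GRCm38.p6) were searched for the TCF/LEF letters CTTTGAT on both strands, since Lef1 was among the leading genes. They were found in 24 of the 939 genes with a promoter that were at least 2-fold higher (2.56%), in 14 of 599 that were lower (2.34%) and in 2.77% of all measured genes. Of the 15 named higher genes with a promoter only Prlr held them, in 1 of its 3 promoters (chr15:10223656-10223955, plus strand), where the match began 222 bases before the start. That promoter is shown because Prlr led the comparison; capitals mark the match, which is on the reverse strand.
Prlr: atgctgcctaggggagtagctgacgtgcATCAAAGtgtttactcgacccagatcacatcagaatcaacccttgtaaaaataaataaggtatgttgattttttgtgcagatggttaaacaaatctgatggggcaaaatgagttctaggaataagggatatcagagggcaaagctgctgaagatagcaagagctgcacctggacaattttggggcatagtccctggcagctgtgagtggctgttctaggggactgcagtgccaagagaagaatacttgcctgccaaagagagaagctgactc

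The 20 genes furthest below fibroblasts were led by Ccl7. The chemokines Ccl7 and Ccl2, which attract monocytes, had 2 and 4 UMIs in the dermal papilla cells and 1244 and 866 CPM in fibroblasts. The complement genes C4b, C3 and Cfb stood at 443, 276 and 164 CPM in fibroblasts. C4b had 0 UMIs in dermal papilla cells, at least 239-fold lower by the same floor of 3 counts, although reads from its near-identical neighbour C4a may be split between them. Cd34 and Ly6c1, surface proteins of dermal fibroblasts that endothelial cells also carry, stood at 10.5 and 8.64 CPM against 815 and 756, and were found in 1.88% and 1.41% of the cells. The secreted Clec3b (17.9 against 1348 CPM), Rarres2 (18.5 against 1107), Pcolce2 (11.1 against 738), Cpz (1.85 against 699), Ogn, Angptl1, C1qtnf3 and Sema3b were low in the same way. Ctla2a, Adgrd1, Il1r2, Ndufa4l2 and Akap12 made up the rest, with between 0 and 11 UMIs each in dermal papilla cells.

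The scale of the comparison matters for genes near 2-fold. The median log2 ratio of all measured genes was 0.32, and the 5 gate genes took 10.9% of fibroblast UMIs and 0.353% of those of dermal papilla cells. On the CPM scale used here 1216 genes were at least 2-fold higher and 793 lower, so that 60.5% of the calls were higher. After centring on the median, 688 were higher and 1118 lower, 38.1% of the calls. All 40 genes named above kept their direction. Of the genes named in the next paragraphs as higher, Lamc3, Rspo1, Igf1, Gli1 and Nr3c1 came under 2-fold after centring. By the same step the higher genes went from 12 to 11 of 15 among the dermal papilla genes outside the rule, where 2 (Foxd1 and Cntn1) passed 2-fold on the lower side, and stayed at 3 for the BMP and the FGF ligands.

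Fibrillar collagens and their partners were low as a group: 9 of 15 measured genes were at least 2-fold lower and 1 higher, with a median log2 ratio of -2.38. The list holds the 5 gate genes, which chose the fibroblasts, so most of this direction was set by the choice. Outside the gate, Col5a1, Col5a2, Col5a3 and Fmod were lower, Col6a3 differed by a log2 ratio of 0.10 (-0.03 to 0.24), and Col14a1 was higher at 56.2 against 11.8 CPM. Sparc, a collagen-binding matrix protein, stood at 766 against 20371 CPM and fibronectin (Fn1) at 5.56 against 394. Of the basement membrane and papilla matrix genes 6 were higher and 7 lower of 19 measured. Tenascin C (Tnc) had 114 against 5.26 CPM, the transmembrane collagen Col23a1 378 against 23.2, and the laminin chain Lamc3 195 against 78.5, while the laminin chains Lama2 and Lamb1 and the collagens Col4a1 and Col4a2 lay within 2-fold. Proteases and their inhibitors were lower in 9 of 11 measured genes: Mmp2 stood at 93.2 against 1193 CPM, Mmp3 at 18.5 against 696 and Timp2 at 356 against 2343. All 8 measured genes of the reticular and adipogenic list were lower, with Ly6a at 34.0 against 1260 CPM and Pi16 at 16.7 against 541. Pdgfra, a receptor of most dermal mesenchyme, stood at 125 (109 to 144) against 144 (129 to 160) CPM.

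Among Wnt ligands 2 of 5 measured were higher and 1 lower. Wnt6 (61.7 against 3.51 CPM) and Wnt10a (35.2 against 1.32, with 104 in keratinocytes) were higher, and Wnt5a stood at 175 against 104. The R-spondin Rspo1 had 284 against 115 CPM, while Rspo2 and Rspo4 had 10 and 2 UMIs. The R-spondin receptor Lgr6 had 41.4 against 1.75 CPM and Lgr4 40.1 against 9.21. Lgr5 had 1 UMI against 71 in fibroblasts. Of 10 measured Wnt inhibitors, 5 were higher and 2 lower. Wif1, which binds Wnt ligands, had 393 against 39.9 CPM and Dkk2, which binds their co-receptors, 438 against 135. The Wnt feedback gene Axin2 was lower, at 16.1 against 35.9 CPM, and Lef1 was the gene furthest above fibroblasts among 11 measured transducers and targets, of which 4 were higher and 1 lower.

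BMP ligands were higher in 3 of 5 measured genes and lower in 1, Bmp1, a protease grouped with them by name (90.8 against 280.1 CPM). Bmp4 had 366 (337 to 396) against 72.3 CPM, Bmp7 167 against 27.2 and Gdf10 39.5 against 0.877. Of 7 measured BMP antagonists 2 were higher, among them Nog at 37.0 against 12.7 CPM, and 3 lower, with Grem1 at 4.32 against 111 and Fstl1 at 189 against 944. Of 9 receptors and targets only Id3, a BMP target, passed 2-fold, and it was lower at 546 against 1120 CPM. All 3 measured FGF ligands were higher: Fgf7 and Fgf10, which act on the follicle epithelium, had 183 against 55.7 and 48.2 against 12.7 CPM, and Fgf2 65.4 against 18.9. The receptor Fgfr1 stood at 671 against 155 CPM. Other paracrine factors were higher too, Igf1 at 246 against 112 CPM and Edn3, a ligand of melanocytes, at 33.3 against 2.63, while Igfbp5 stood at 176 against 2356, with 177 of its 285 UMIs in 1 dermal papilla cell.

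Of the 9 measured genes of the hedgehog response, 3 were higher and 3 lower. Ptch1, the hedgehog receptor and itself a target, had 225 (202 to 249) against 53.9 (44.8 to 64.3) CPM, Gli1, the target that transmits the signal, 50.01 against 20.2, and Hsd11b1, which activates glucocorticoids, 92.0 against 20.2. The co-receptors Gas1, Cdon and Boc were lower, Gas1 at 129 against 444 CPM. Among Notch genes the receptor Notch1 (109 against 21.5 CPM) and the ligands Jag1 (89.5 against 12.3) and Dll1 (74.1 against 7.01) were higher, and the target Hes1 lower (159 against 393). Of the 10 TGF-beta and activin genes, a list without Inhba, 0 were higher and 5 lower, with Tgfb2 at 33.3 against 158 CPM and its receptor Tgfbr2 at 84.6 against 264.

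Of 11 measured hormone and nuclear receptors 4 were higher and 1 lower. Beside Prlr these were the thyroid hormone receptor Thrb (106 against 19.7 CPM), the glucocorticoid receptor Nr3c1 (317 against 142) and the vitamin D receptor Vdr (26.5 against 10.1). The growth hormone receptor Ghr was lower, at 6.17 against 93.8 CPM. Crabp2, like Crabp1 a retinoic acid binding protein, stood at 109.9 against 4.82 CPM, and Aldh1a1, an enzyme that makes retinoic acid, at 15.4 against 207.

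Of 10 cell cycle genes 3 were measured, and 2 of them were lower. The mitotic genes Mki67, Top2a and Cdk1 had 2, 4 and 0 UMIs, while Pcna, a replication factor that also acts in DNA repair, was found in 54.9% of the dermal papilla cells at 132 against 135 CPM. Among cell cycle inhibitors Cdkn1c had 86.4 against 32.9 CPM, Cdkn1a 634 against 509, and Cdkn2a, which encodes p16 and p19, 4.94 against 38.1. The cytokine Il6 stood at 12.3 against 278 CPM. Immediate early genes, which dissociation can induce, were within 2-fold for 10 of 12, and Atf3 (275 against 1066 CPM) and Zfp36 were lower. After centring 6 of the 12 were lower.

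Variation among the dermal papilla cells was read from counts thinned to 3000 UMIs in 205 of the 213 cells. Over 2288 genes with a mean of at least 0.2 UMIs, the median ratio of variance to mean was 1.16. The 15 genes with the highest ratio outside the rule were Krtdap, Lgals7, Saa1, Fos, Col3a1, Tnfaip6, Mt1, Saa3, Malat1, Dcn, Hspa1b, Igfbp5, Cst3, Lum and Serpine2. Some of these rested on few cells. Krtdap, a gene of differentiating keratinocytes, had 265 of its 316 UMIs in 1 cell, and the acute phase genes Saa1 and Saa3 had 96.9% and 99.4% of their UMIs in 5 cells. Lum had 237 of 240 UMIs in 5 cells. The 4 cells with the fibroblast genes at 1% or more held 98.3% of the Lum and 71.6% of the Dcn UMIs. Others varied across the whole set: Mt1, a metallothionein, was found in 87.3% of the thinned cells with a ratio of 31.7 and up to 135 UMIs in a cell, Tnfaip6, a hyaluronan-binding protein of inflammation, in 67.3% with 32.2, and Fos, an immediate early transcription factor, in 61.5% with 40.0.

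Clustering of the 213 cells gave 5 groups of 60, 46, 39, 37 and 31 cells, numbered by size. The genes named for a group are those that defined it and carry no test. Group 1 (60 cells) led in Tnfaip6 at 7245 CPM against 722 in the other cells, Cebpd (3543 against 689), Has1, a hyaluronan synthase (778 against 143), Lcn2, Serpine2 and Ptgir, and had the highest Mt1, at 14930 CPM. Group 2 (46 cells) led in Fos (12213 against 1035 CPM), Egr1, Jun, Zfp36 and the heat shock genes Hspa1a and Hspa1b, and also in Dcn, Col3a1, Lgals7 and Krt10. Of the 497 Lgals7 UMIs, 316 were in 1 of its cells. All 4 cells with the fibroblast genes at 1% or more were in it. Without them Dcn went from 2951 to 503 CPM, Col3a1 from 4805 to 739 and Lum from 804 to 0. Group 2 then led in neither Dcn nor Col3a1. Dcn was 511 CPM in group 4, and Col3a1 was 1379 in group 3 and 973 in group 5. Without the same cells Fos stood at 14227 CPM in group 2 and Hspa1b at 1367. Group 4 (37 cells) led by smaller margins in Fgl2, Rgcc, Cilp and Hspa2, with Mt1 at 10760 CPM.

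Group 3 (39 cells) led in Ptch1, the hedgehog receptor, and in some of the papilla genes but not in others. Ptch1 stood at 826 CPM, against 25.0008 to 173 in the other 4 groups, Sox18 at 546 against 5.0002 to 155, Vcan at 999 against 47.5 to 424, Mdk at 974.7 against 35.9 to 536, and Rspo3 at 1007 against 97.5 to 409. Corin, Hhip and Alpl were highest there too, at 135, 213 and 103 CPM, and Gdf10 stood at 145 CPM against 7.50023 to 23.9. The rule genes summed to 5168 CPM in group 3 and 5660 in group 1. Crabp1 stood at 627 CPM in group 3 against 1503 in group 1, Slc26a7 at 599 against 1390 and Pappa2 at 266 against 530.02. Mt1 was lowest in group 3, at 227 CPM. In cells thinned to 3000 UMIs, Ptch1 was found in 66.7% of group 3 and in 8.33% to 29.0% of the others, and Sox18 in 52.8% and 0% to 19.4%. Mdk and Vcan were shared with group 5 at that depth, in 72.2% and 67.7% of cells for Mdk and in 44.4% and 48.4% for Vcan. The median depth of group 3 was 6870 UMIs, against 6455 and 6657 in groups 1 and 4. Group 5 (31 cells) was deeper, with a median of 12345 UMIs, and led in Egfl6, Sgk1, Gem and Igfbp4. Prlr and Slc26a7 were lowest in it, at 435 and 201 CPM, against 1060 to 1530 and 599 to 1390. Igfbp3 was at 473 CPM there and 2066 to 4195 in the other groups. In cells thinned to 3000 UMIs, Slc26a7 was found in 38.7% of group 5 and in 66.7% to 91.7% of the others, and Prlr in 67.7% and in 75% to 96.7%.

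**Figure D3:**
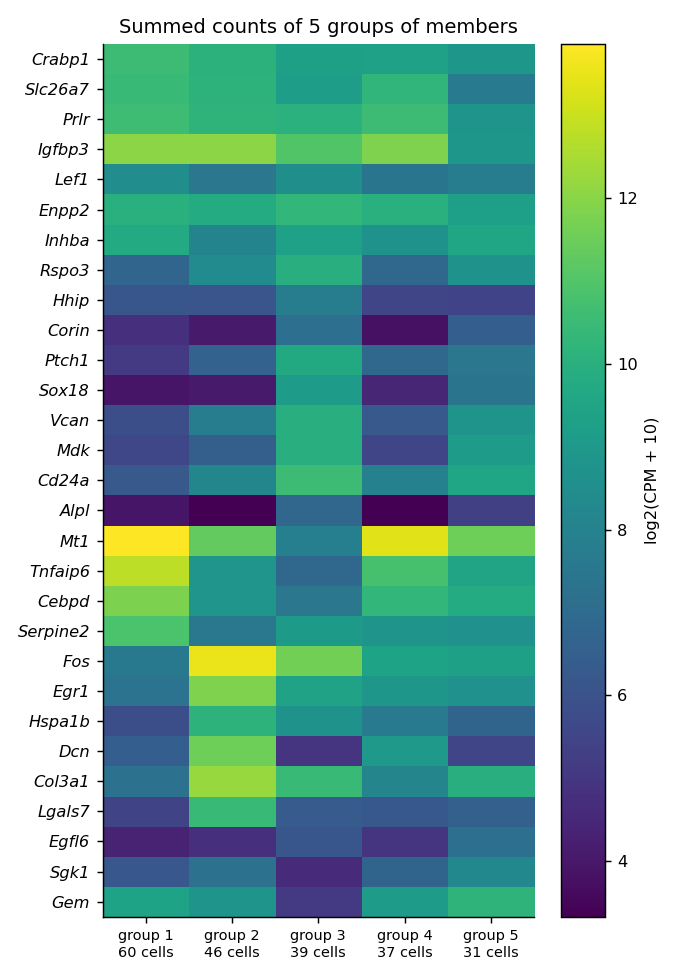
log2(CPM + 10) of the summed counts of each of the 5 groups (columns, with their number of cells) for rule genes, papilla genes and genes that led a group (rows); colour is the level. Group 3 is bright in Ptch1, Sox18, Vcan and Mdk and dark in Mt1, group 1 is bright in Mt1 and Tnfaip6, and group 2 in Fos and Dcn. Dcn in group 2 falls from 2951 to 503 CPM without the 4 cells with the fibroblast genes at 1% or more.

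The 15 cells that the same rule took at 6 months held 120714 UMIs, a median of 8448 per cell. Their values are set beside those of 12 months with no test, since each age is 1 library and age comes with sex and hair cycle stage. Sex was as stated: Xist, the RNA of the inactive X chromosome, had 215 UMIs in 14 of the 15 cells at 6 months and 1 UMI at 12 months, and the Y-linked Ddx3y had 0 and 337. Of 4739 genes with at least 50 UMIs in both together, 16.0% were at least 2-fold higher and 11.7% at least 2-fold lower at 12 months. Of the 14 measured dermal papilla genes outside the rule, 3 were higher and 7 lower at 12 months. Of the 9 rule genes 1 was higher and 4 lower, but these decided which cells were taken at both ages.

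Genes were ranked by the nearer limit of the interval, a rule chosen after values were seen. The sex-linked Xist, Ddx3y, Eif2s3y, Kdm5d and Uty were left out of the ranking, as were predicted genes and Riken clones. By that limit Xist lay further below at 12 months than Rspo4, and Ddx3y further above than Hmox1. A ranked gene also needed a UMI in at least 25% of the cells of the age where it was higher. Mgp, with 142 UMIs in 1 cell at 6 months and 0 at 12 months, was left out by this limit. Of the genes ranked, the 12 furthest below at 12 months were Rspo4, Sostdc1, Emb, Sfrp1, Nrg2, Chodl, Cxcl14, Ptprz1, Corin, Mir155hg, S100a8 and Cntn1. Rspo4, an R-spondin, had 2 UMIs in 213 cells at 12 months (1.23 CPM) and 76 UMIs in 11 of 15 cells at 6 months (630 CPM, 496 to 788). Sostdc1, which blocks BMP and Wnt, stood at 40.1 against 2030 CPM (1783 to 2300), and Sfrp1, a Wnt inhibitor, at 52.5 against 1996. Corin stood at 48.8 against 903 and was detected in 27 of 213 and 14 of 15 cells, but it is a rule gene and helped choose them. Of 9 measured Wnt inhibitors 4 were lower and 1 higher at 12 months, with Wif1 at 393 against 3595 and Dkk2 at 438 against 199 CPM. Over all measured genes 11.7% were lower and 16.0% higher at 12 months. All 5 measured BMP antagonists were lower, Nog at 37.0 against 315 CPM, and of 3 FGF ligands 2 were lower, Fgf10 at 48.2 against 224 and Fgf7 at 183 against 613. Rspo4 was lower at 12 months in fibroblasts too, at 6.14 against 39.0 CPM. In the same cells Sfrp1 was 45.2 CPM at 12 months and 80.5 at 6 months, Nog 12.7 and 18.3, and Fgf10 12.7 and 7.32.

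Of the genes ranked, without Ddx3y, the 12 furthest above at 12 months by the same rule were Mt2, Mt1, Rasd1, a, Dnm3os, Sik1, Hmox1, Has1, Lgals3, AY036118, Tnfaip6 and Dusp2. They were led by the metallothioneins Mt1 (6574.5 against 91.1 CPM) and Mt2 (2456 against 8.28), Rasd1 (966 against 8.28) and a, the agouti signaling protein of coat colour (390 against 8.28). At 6 months Mt1 had 11 UMIs. Mt2, Rasd1, a and Has1 had 1 UMI each there (limits 0.210 to 46.2 CPM). Dnm3os had 2 UMIs there, and Sik1, Hmox1 and Dusp2 had 0. All of these are under the floor of 3 counts, so their folds are not measured levels. Mt1, Mt2, Rasd1 and a were higher at 12 months in fibroblasts as well, with log2 ratios of 3.14 for Mt1, 2.59 for Mt2, 4.12 for Rasd1 and 2.64 for a. Fibroblasts at 6 months held 2 UMIs of Rasd1 and 3 of a. AY036118, Sik1 and Dnm3os were higher there too, by 4.28, 1.79 and 1.18. Among genes that stood above fibroblasts, Prlr had 1108 CPM at 12 months and 157 (94.8 to 246) at 6 months, Igfbp3 2815 and 406, Slc26a7 884 and 141, Cd24a 547 and 116, and Sox18 137 and 16.6. Slc26a7, like Crabp1 below, is a rule gene and helped choose the cells at both ages. Sox18 had 2 UMIs at 6 months (limits 2.01 to 59.8 CPM). Trps1 was at 566 and 555 CPM, a log2 ratio of 0.03 (-0.33 to 0.41), and Lef1, Crabp1 and Ptch1 were within 2-fold at 255 and 348, 890 and 1267, and 225 and 307 CPM. The values at 6 months rest on 15 cells, 1 of which had the fibroblast genes at 1% or more.

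**Figure D4:**
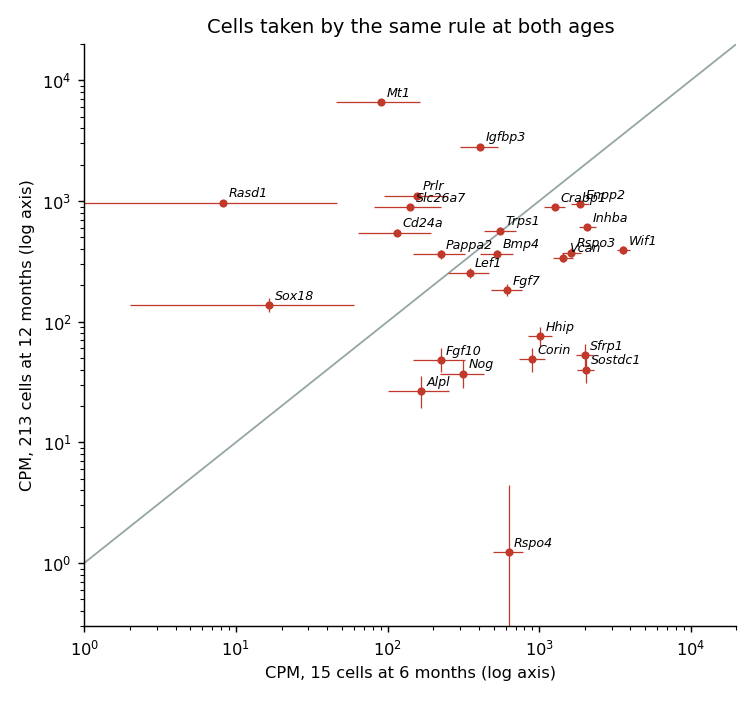
CPM of named genes in the 15 cells at 6 months (x axis, log) and the 213 cells at 12 months (y axis, log) that the same rule took; bars are exact Poisson 95% intervals and the grey line marks equal levels. Rspo4, Sostdc1, Sfrp1, Corin and Hhip lie below the line, Mt1, Rasd1, Sox18, Prlr and Igfbp3 above it, and Trps1 on it. Corin and Hhip are rule genes, which chose the cells at both ages.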

How the data were processed

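For each library the authors deposited a matrix of raw UMI counts by gene and barcode, without normalization. Reads were mapped to mm10 and counted by the authors with Cell Ranger, given as 6.0.0 in the file headers of 6 and 12 months and as 6.1.2 in that of P38 and in the submitters' processing notes. Cells were filtered as in the rule, no doublet caller was run and free RNA was not removed, and UMIs were summed per class. Log2 ratios carry exact 95% intervals conditional on both counts. Thinning drew 3000 UMIs per cell without replacement and left out 8 dermal papilla cells and 5 fibroblasts. Named genes, of those with at least 50 UMIs, are the 20 with the highest lower limit and the 20 with the lowest upper limit of the log2 ratio, with a UMI in at least 25% of the higher class, leaving out rule and gate genes, predicted genes and Riken clones. The 15 variable genes have the highest variance to mean ratio. Groups came from Leiden clustering (scanpy 1.11.5, 2000 variable genes, 15 components and 15 neighbours, resolution 0.5; resolution 0.8 gave 5 groups and 0.3 gave 3). Python 3.11.15, numpy 2.4.6 and scipy 1.17.1 were used, and the intervals were tested on simulated counts. Gene positions are those of GENCODE for GRCm38. The cells, lists and named comparisons were chosen with earlier results of these data known.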

Additional observations from a re-analysis of the deposited data

Results flagged for a closer look

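Besides the 213 cells, 6 kept cells of the 12 months library had at least 4 of the 9 rule genes together with Krt14 and Krt5 at or above the limit, and entered no comparison. The keratins held 0.216% to 1.76% of their UMIs, and their median of 16450.5 UMIs was above that of the dermal papilla cells, 6654, and of the keratinocytes, 12026. Whether they were droplets with cells of both kinds was not tested.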

How the results depend on the processing

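No paired analysis was possible because each age had 1 library. The number of dermal papilla cells was 184 with at least 5 rule genes and 170 when the rule was applied after thinning to 3000 UMIs. It stayed within the interval of the share with at least 3 rule genes, a mitochondrial limit of 25%, no upper limit on genes, or no keratin limit (213 to 233), and, added after seeing the data, without shared barcodes or without a mitochondrial limit (212 and 213). The count of genes at least 2-fold higher was 584 after thinning (429 lower), 688 after centring, 2347 with at least 10 UMIs per gene (1429 lower) and 360 with at least 200 (365 lower), which test other numbers of genes. The split of the calls also moved with a gate of 3% (1619 higher, 753 lower), with fibroblasts that had none of the rule genes (1449 and 552) and, added after seeing the data, with totals without the gate genes (917 and 933). All 40 named genes kept their direction wherever they were measured, with absolute log2 ratios of at least 3.29. The median of dermal sheath and smooth muscle genes was the one called value that turned, from 1.18 to -0.17 with at least 10 UMIs. Leaving out the 4 cells with fibroblast genes, chosen after seeing the data, gave 1243 higher and 846 lower genes.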
